A study of Mus musculus with 33 samples.

Results

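The libraries compared here came from mice given nicotinamide (NAM) for 3 days and from untreated mice, in the set that the labels assign to spleen. They were chosen by the group in the sample titles, NAM_3d S against Untreated S, and number 5 against 5, or 10 of the 33 libraries of the series. All are polyA RNA of C57Bl/6 mice without tumours, and the treated mice drank water with 0.5% NAM. The labels give neither age nor sex of these mice, do not say whether the animals were pooled, and name no vehicle for the untreated group. Values are normalised read counts per gene, and the 18243 of 56414 rows with a mean of at least 10 over the 20 libraries of this label were tested. The question put to the data was which transcripts of a lymphoid organ differ after 3 days of NAM.

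NAM is a form of vitamin B3. Cells rebuild nicotinamide adenine dinucleotide (NAD) from it through nicotinamide phosphoribosyltransferase (Nampt), and sirtuins and poly(ADP-ribose) polymerases release it again when they use NAD. Surplus NAM is methylated by nicotinamide N-methyltransferase (Nnmt), which draws the methyl group from S-adenosylmethionine, the product of methionine adenosyltransferase (Mat2a with its regulatory subunit Mat2b in most tissues). Lymphoid organs hold mostly B and T lymphocytes, set in a frame of reticular stromal cells, follicular dendritic cells and vessels.

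Several markers of the organ went against the label, and 1 of those examined went with it. Glycam1, a mucin of the high endothelial venules through which lymphocytes enter lymph nodes, ranged from 108167 to 214210 over the 20 libraries labelled spleen and from 1.59 to 12.4 over the 13 labelled lymph node. Spic, a transcription factor of red pulp macrophages of the spleen, had counts of 774 to 1295 where the label was spleen and of 6117 to 10491 where it was lymph node. Nkx2-5, a homeobox gene of the developing spleen, was at 0 in all 20 libraries labelled spleen and at 167 to 267 in those labelled lymph node. Madcam1, an adhesion molecule of vessels in both organs, went with the label, at 137 to 402 where it was spleen and 577 to 956 where it was lymph node. Counts of the 2 labels were scaled separately, which limits these levels but not a difference of this size. Adipoq, the adiponectin gene of fat cells, reached 3148 to 43022 in the 20 libraries labelled spleen, so fat RNA was in these libraries in unequal amounts. The organ is therefore given below only as labelled spleen. In bulk RNA, fewer cells of a type and less RNA per cell cannot be told apart.

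Sequencing was deeper after treatment, with 43632016 to 54830743 whole reads per library at 3 days and 18325061 to 31486631 in the untreated group, so depth and treatment did not overlap. Replicate 1 at 3 days stood apart from the other 3 day libraries. The mitochondrial chromosome held 14.0% of its values, against 5.95% to 8.29% in the other 4 and 8.92% to 9.85% in untreated libraries. On the second principal component, which carried 13.6% of the variance, it lay at -17.4, among the untreated libraries at -38.0 to -13.2. The other 4 lay at 11.1 to 21.6. On the first, which carried 30.1%, replicate 1 lay at 21.3, the other 4 at -33.5 to 15.9 and untreated libraries at -62.5 to 24.0. Replicate 1 also had the highest summed level of adipocyte markers in both groups, at 444035, against 72378 to 363501 untreated. Calls and fold changes are therefore given with and without replicate 1. It was singled out from these same values, so counts and p-values without it are not a second test. Leaving out the treated library nearest the untreated ones tends to raise the number of calls.

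**Figure D1:**
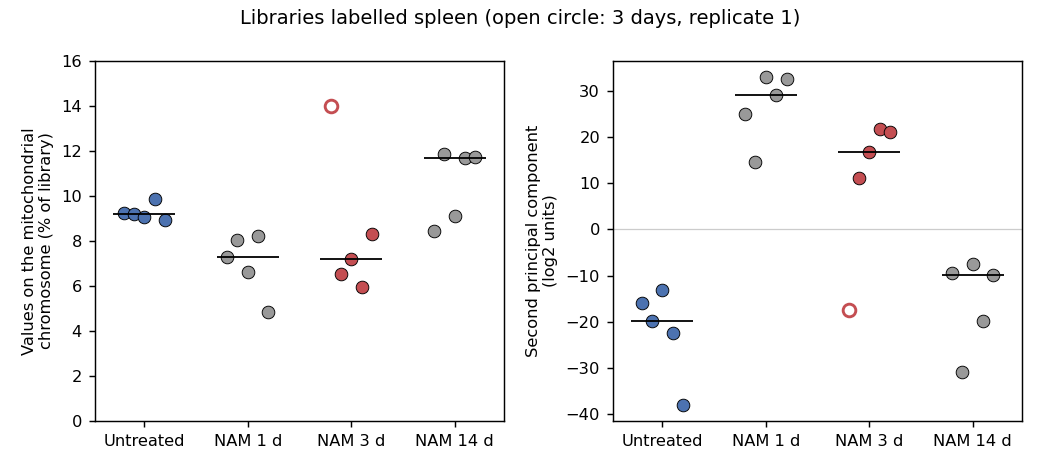
Share of normalised values on the mitochondrial chromosome (left, % of the library) and position on the second principal component of log2 values (right) in the 20 libraries labelled spleen, by group, with 1 circle per library and the group median as a line. Replicate 1 at 3 days (open circle) is the highest library on the left, at 14.0%, and lies with the untreated libraries on the right, at -17.4.

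With all 10 libraries, 1013 of 18243 genes (5.55%) differed between 3 days and untreated (limma, Benjamini-Hochberg adjusted p under 0.05), of which 514 (2.82%) were higher and 499 (2.74%) lower after NAM. An unadjusted p under 0.05 was reached by 4007 genes (22%), the share against which such counts in the lists below are to be read. Without replicate 1, 2782 genes (15.2%) differed, 1482 (8.12%) higher and 1300 (7.13%) lower. Of the 1013 genes, 1010 were called again, all in the same direction. Both fits share all other libraries, so this overlap is no separate check. Changes were small. The median size of a call was 0.39 on the log2 scale among both the higher and the lower genes, 97 higher and 93 lower genes reached a 1.5-fold change, and 19 and 20 reached a 2-fold change. In 924 genes (5.06%) the values of the 5 treated libraries did not overlap with those of the 5 untreated ones, and without replicate 1 in 3385 (18.6%). On whole reads, edgeR called 1084 genes (5.94%) and DESeq2 1723 (9.44%). A limma fit of the 2 groups alone called 140, and library weights gave 4722. With TMM scaling, which moved the median of all genes to 0.034, the split was 714 higher and 312 lower. Reads thinned to equal depth gave 816 calls, 431 higher and 385 lower. The count rested on single libraries, since leaving out 3 day replicate 3, 5, 2 or 4 gave 158, 196, 288 or 366 calls and leaving out untreated replicate 1, 5, 2 or 4 gave 420, 479, 520 or 547. Of 95 called genes named by rule, 22 were called in all 10 fits that left out 1 library each.

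The calls followed the base composition of the transcripts. A GENCODE M21 transcript was matched to 15052 of the tested genes, and its GC content had a median of 50.2% over all of them, 44.2% among the genes called higher and 53.9% among those called lower. Without replicate 1 these medians lay closer together, at 47.2% and 51.5%. Of 10 bins of genes by GC content, the lowest held 125 higher and 6 lower calls and the highest 6 higher and 86 lower. Without replicate 1 the skew by GC content was weaker. The lowest bin then held 218 higher and 63 lower calls and the highest 46 and 152. The gap in transcript length was wider without it. Median length was 2675 bases among higher and 3739 among lower calls, and 2377 and 4171 without replicate 1. Over the 15052 genes, each library's deviation from the gene mean was correlated with GC content (Spearman). The coefficient was -0.211 to -0.103 in the 3 day libraries and 0.00554 to 0.122 in the untreated ones. With transcript length it was 0.284 in 3 day replicate 1 and -0.274 to -0.113 in the other 3 day libraries. Untreated libraries ranged from -0.169 to 0.317. The genes of 1 library share its preparation and depth, and the treated libraries were also the deeper ones. When log2 values were corrected in each library for transcript GC content and length, 97 genes were called (0.644% of 15052), 40 higher (0.266%) and 57 lower (0.379%), against 988 (6.56%) of the same genes without the correction. Of the 1013 calls, 895 had a transcript value and 91 of those were called again. Without replicate 1, 1375 genes (9.13%) were called with the correction, 726 higher (4.82%) and 649 lower (4.31%), against 2540 (16.9%) without it. This correction was added after the data were seen, and its value is given beside called genes with a matched transcript. Whether GC content moved with library preparation or with NAM cannot be told apart.

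Coding sequences of 4 named genes show what low and high GC content look like. They were picked for it and test nothing, since Fam189a2 rose with a coding GC content of 59.5% and Gadl1 fell with 50.1%. The first 90 bases of the coding sequence, from the start codon (GENCODE M21, GRCm38), are shown 5′ to 3′ for the pair of lowest coding GC content among the 12 largest rises and for the pair of highest among the 12 largest falls, with G and C in capitals. Kbtbd3 (chr9:4309833-4331732, plus strand) and Rpl22l1 (chr3:28805436-28807424, plus strand) rose, and Tmem238 (chr7:4784557-4789656, minus strand) and Klf2 (chr8:72319033-72321656, plus strand) fell.
Kbtbd3: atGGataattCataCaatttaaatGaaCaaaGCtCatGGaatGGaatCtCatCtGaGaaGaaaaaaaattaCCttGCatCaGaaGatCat
Rpl22l1: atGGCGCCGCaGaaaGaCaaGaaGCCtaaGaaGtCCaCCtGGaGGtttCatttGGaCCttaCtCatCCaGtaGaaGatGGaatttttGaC
Tmem238: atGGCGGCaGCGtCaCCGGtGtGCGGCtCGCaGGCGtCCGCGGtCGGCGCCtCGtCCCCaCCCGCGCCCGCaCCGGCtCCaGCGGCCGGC
Klf2: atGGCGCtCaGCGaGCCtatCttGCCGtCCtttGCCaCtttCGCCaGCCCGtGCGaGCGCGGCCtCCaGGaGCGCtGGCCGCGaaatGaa
Kbtbd3, a kelch-repeat protein, measured 182, 99.8, 156, 143 and 114 untreated and 165, 243, 276, 241 and 213 at 3 days. Kbtbd3 rose by 0.72 on the log2 scale (SE 0.18, adjusted p = 0.0283), the value without 3 day replicate 1 was 0.83 (adjusted p = 0.00426) and that with the GC and length correction 0.53 (adjusted p = 0.14). Tmem238, a small membrane protein, measured 393, 312, 451, 396 and 347 untreated and 273, 173, 173, 234 and 219 at 3 days. Tmem238 fell by 0.83 on the log2 scale (SE 0.16, adjusted p = 0.00919), the value without 3 day replicate 1 was -0.93 (adjusted p = 5.50e-04) and that with the GC and length correction -0.78 (adjusted p = 0.023). Replicate 1 lay within the untreated range for Kbtbd3, and the groups did not overlap for Tmem238. In the 10 fits that each omitted 1 library, Tmem238 passed in 10 of 10 fits. The call was kept by Kbtbd3 in 4 of 10 fits (largest adjusted p 0.0965, at 0.65, without 3 day replicate 3). Over the whole coding sequence, GC content was 38.8% in Kbtbd3, 39.9% in Rpl22l1, 73.9% in Tmem238 and 70.7% in Klf2.

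**Figure D2:**
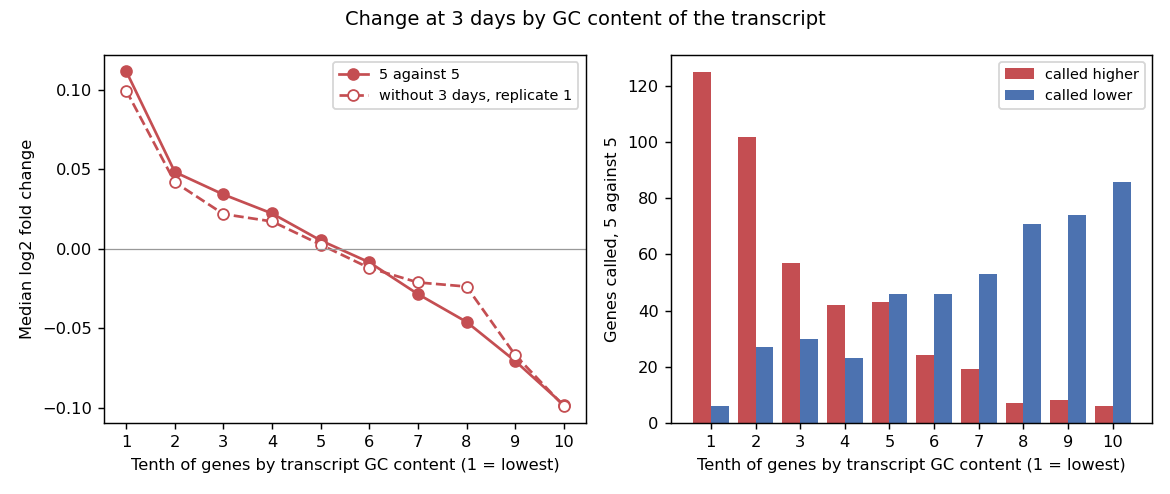
Median log2 fold change at 3 days (left) and number of genes called (right) in 10 bins of the 15052 genes by transcript GC content, from lowest to highest. The median goes from 0.11 in the lowest bin to -0.098 in the highest with all libraries, and from 0.099 to -0.099 without replicate 1 at 3 days. With all libraries, calls go from 125 higher and 6 lower to 6 higher and 86 lower.

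On the list of the methionine and one-carbon cycle, 3 genes rose, namely Mat2a, Mat2b and Ahcyl2. A link of these rises to Nnmt, which was not called, was not tested. In the list of the methionine and one-carbon cycle, 3 of 21 tested members rose and 0 fell, with 3 and 1 without replicate 1 (14.3% called, and 19% without replicate 1, against 5.55% and 15.2% of all genes), and the median log2 fold change was 0.058, against 0.00066 for all genes. Mat2a, the catalytic subunit of methionine adenosyltransferase (chr6:72432799-72439564, mm10), had normalised counts of 2439.7, 2737, 2552, 2477 and 2524 in untreated replicates 1 to 5 and of 3009.9, 3661, 3764, 3307 and 4037 in the 3 day replicates 1 to 5. All treated libraries lay above all untreated ones. Mat2a rose by 0.48 on the log2 scale (SE 0.074, adjusted p = 0.00472), the value without 3 day replicate 1 was 0.53 (adjusted p = 3.24e-05) and that with the GC and length correction 0.41 (adjusted p = 0.0279). Ahcyl2, a relative of S-adenosylhomocysteine hydrolase (chr6:29768443-29912309), measured 2708, 3131, 2911, 2784 and 2855 untreated and 3887, 3884, 3786, 3633 and 4206 at 3 days. Its groups did not overlap either. Ahcyl2 rose by 0.43 on the log2 scale (SE 0.092, adjusted p = 0.0138), the value without 3 day replicate 1 was 0.43 (adjusted p = 0.00599) and that with the GC and length correction 0.47 (adjusted p = 0.0219). Mat2b, the regulatory subunit, measured 3468, 3085, 3773, 3215 and 2967 untreated and 3128, 4658, 4819, 5162 and 4905 at 3 days. Replicate 1 lay within the untreated range and the other 4 above it. Mat2b rose by 0.44 on the log2 scale (SE 0.10, adjusted p = 0.0221), the value without 3 day replicate 1 was 0.57 (adjusted p = 1.93e-05) and that with the GC and length correction 0.33 (adjusted p = 0.132). When each library was dropped in turn, Mat2a passed in 10 of 10 fits. The threshold was still met by Ahcyl2 in 9 of 10 fits (largest adjusted p 0.054, at 0.40, without 3 day replicate 5) and Mat2b in 5 of 10 fits (largest adjusted p 0.0738, at 0.41, without 3 day replicate 5). Ahcyl1, a close relative of Ahcyl2, passed only without replicate 1, at -0.26 (adjusted p = 0.0291, and 0.0186 with the correction, against -0.18 and 0.246 with all libraries). Chka, choline kinase alpha, which starts phosphatidylcholine synthesis, is not on the list. Chka measured 339, 359, 325, 352 and 296 untreated and 409, 504, 537, 516 and 558 at 3 days. Chka rose by 0.59 on the log2 scale (SE 0.091, adjusted p = 0.00472), the value without 3 day replicate 1 was 0.66 (adjusted p = 3.11e-05) and that with the GC and length correction 0.61 (adjusted p = 0.0188). Over the 10 fits lacking 1 library each, Chka passed in 10 of 10 fits.

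The lists of NAD metabolism held 1 call. Of 17 tested genes of NAD synthesis and NAM clearance, 0 passed with limma, edgeR or DESeq2, 0 with limma without replicate 1, 2 had an unadjusted p under 0.05, and the median log2 fold change was 0.048. Nampt measured 2481, 3190.4, 2533, 2851 and 2236 untreated and 3515, 2311, 2360.0, 2317 and 2697 at 3 days. Nampt gave a difference of -0.019 on the log2 scale (SE 0.11, adjusted p = 0.946), and the value without 3 day replicate 1 was -0.13 (adjusted p = 0.428). Nnmt measured 123, 367, 217, 293 and 389 untreated and 337, 296, 558, 329.7 and 699 at 3 days. Untreated and treated values overlapped, with a wide range within each group. Nnmt gave a difference of 0.70 on the log2 scale (SE 0.42, adjusted p = 0.355), and the value without 3 day replicate 1 was 0.78 (adjusted p = 0.295). Qprt, which makes NAD from quinolinate, had the smallest p of the list, at -0.42 (adjusted p = 0.1, and 0.157 without replicate 1). For NAD-consuming enzymes, 1 of 24 tested members rose and 0 fell, with 1 and 1 without replicate 1 (4.17% called, and 8.33% without replicate 1, against 5.55% and 15.2% of all genes), and the median log2 fold change was -0.02. Tnks2, tankyrase 2, measured 2140.1, 2298, 2285, 2475 and 2443 untreated and 2458, 2949, 2761, 3095 and 3096 at 3 days. Tnks2 rose by 0.30 on the log2 scale (SE 0.064, adjusted p = 0.0133), the value without 3 day replicate 1 was 0.35 (adjusted p = 2.77e-04) and that with the GC and length correction 0.33 (adjusted p = 0.0889). With 1 library left out at a time, the call was held by Tnks2 in 9 of 10 fits (largest adjusted p 0.0545, at 0.27, without 3 day replicate 5). Sirt1, the founding mammalian sirtuin, measured 805 ± 69.8 untreated and 867 ± 53.5 at 3 days (SD, n = 5 each), a difference of 0.11 (adjusted p = 0.526, and 0.625 without replicate 1).

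**Figure D3:**
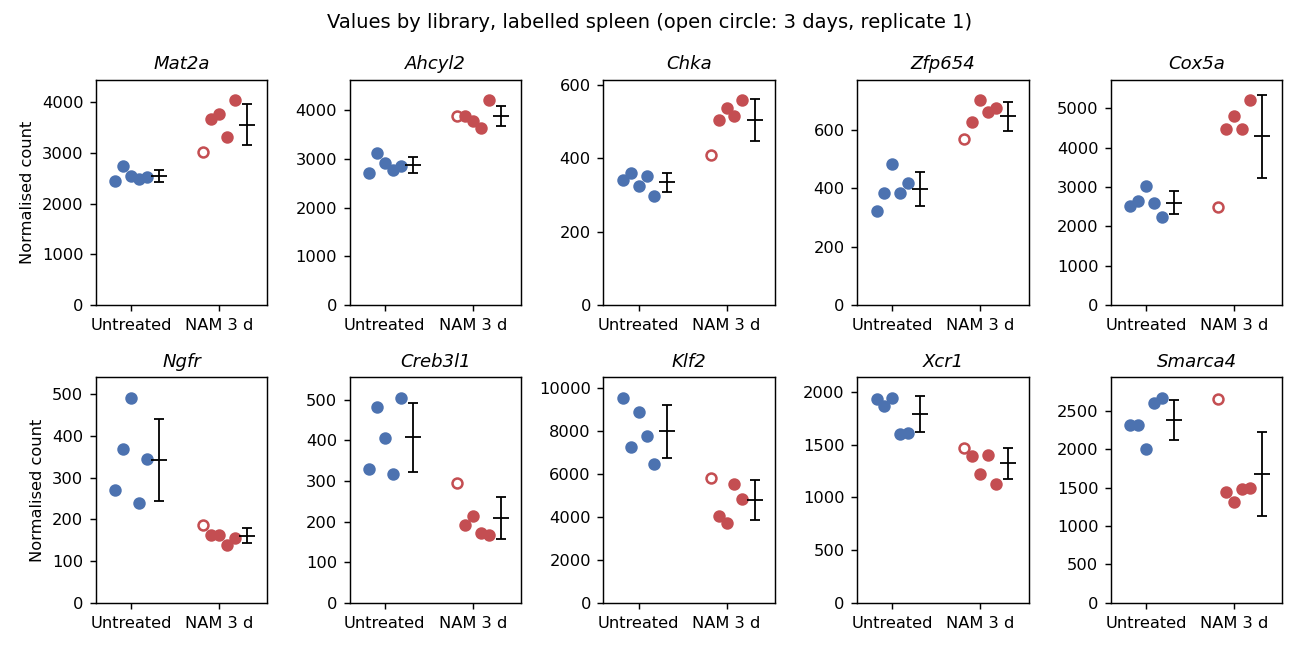
Normalised counts of 10 genes in each library, untreated and after 3 days of NAM, with the mean and SD beside each group (n = 5) and replicate 1 at 3 days as an open circle. Mat2a, Ahcyl2, Chka and Zfp654 lie above the untreated range in all 5 treated libraries, Ngfr, Creb3l1, Klf2 and Xcr1 below it, and in Cox5a and Smarca4 replicate 1 lies apart from the other 4.

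Genes induced by interferon did not pass with all libraries. In the type I interferon list, 0 of 36 genes passed with limma and 1 without replicate 1 (0% called, and 2.78% without replicate 1, against 5.55% and 15.2% of all genes), 0 passed with edgeR and 1 with DESeq2, while 5 had an unadjusted p under 0.05, a smaller share than the 22% of all genes. The 1 gene was Bst2, a surface protein that tethers viruses, at 0.36 (adjusted p = 0.032, and 0.199 with the correction, against 0.21 and 0.429 with all libraries). The median log2 fold change of the list was 0.10. Isg15, a ubiquitin-like protein induced by interferon, measured 469, 750.1, 555, 557 and 408 untreated and 535, 626, 628, 868 and 819.7 at 3 days. Ifit1, which binds viral RNA, measured 706, 1283, 765, 969 and 537 untreated and 1118, 680.0, 729, 1056 and 1092 at 3 days. Irf7, the factor that amplifies interferon production, measured 3072, 5211, 2748, 3813 and 2599 untreated and 4132, 3024, 2766, 3984 and 3820.2 at 3 days. In all 3 genes the groups overlapped, and the differences were 0.35 (adjusted p = 0.254, and 0.117 without replicate 1), 0.16 (adjusted p = 0.697, and 0.837 without replicate 1) and 0.054 (adjusted p = 0.891, and 0.987 without replicate 1). Ddx60, a helicase of the antiviral response, had the smallest p of the list. Ddx60 measured 405, 411, 273, 384 and 375 untreated and 447, 449, 444, 493 and 481 at 3 days. Its groups did not overlap, yet the difference of 0.34 (adjusted p = 0.0758, and 0.0539 without replicate 1) missed the threshold. Of 16 guanylate-binding and immunity-related GTPases, 0 passed with limma or edgeR and 1 with DESeq2, and the 1 that passed with limma without replicate 1 (6.25%, against 15.2% of all genes) was Ifi47, at 0.67 (adjusted p = 0.002, and 0.0201 with the correction, against 0.50 and 0.0805 with all libraries).

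Among chemokines and their receptors, 0 of 38 tested members rose and 1 fell, with 3 and 3 without replicate 1 (2.63% called, and 15.8% without replicate 1, against 5.55% and 15.2% of all genes), and the median log2 fold change was -0.035. The fall was that of Xcr1, described with dendritic cells. Cxcl9 and Cxcl10, ligands of Cxcr3 on T cells and natural killer cells, differed by -0.28 (adjusted p = 0.412, and 0.303 without replicate 1) and 0.23 (adjusted p = 0.514, and 0.577 without replicate 1). Ccl2, which recruits monocytes, ranged from 138 to 483 untreated and from 131 to 376 at 3 days, and differed by 0.22 (adjusted p = 0.739, and 0.31 without replicate 1). Without replicate 1 and with an adjusted p under 0.05, 3 members were higher and 3 lower. Ccl8, a monocyte chemokine, was at 1.11 (adjusted p = 0.00324, and 0.0213 with the correction, against 0.87 and 0.0555 with all libraries). Ccl17, a ligand of Ccr4, was at 0.73 (adjusted p = 0.0104, and 0.0715 with the correction, against 0.60 and 0.0658 with all libraries). The receptor Cxcr6 was at 0.52 (adjusted p = 0.0225, and 0.155 with the correction, against 0.35 and 0.24 with all libraries). The receptor Ccr1 was at -0.60 (adjusted p = 0.0306, and 0.0199 with the correction, against -0.55 and 0.0615 with all libraries), and Cxcl13 at -0.58 (adjusted p = 0.0309, and 0.00749 with the correction, against -0.53 and 0.0623 with all libraries).

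The largest falls of the called genes given here were those of Gadl1, Ngfr and Creb3l1. Ngfr, the p75 neurotrophin receptor, present on nerve, follicular dendritic and reticular cells (chr11:95568818-95587699), had normalised counts of 270.1, 369, 491, 239 and 344 in untreated replicates 1 to 5 and of 187, 162, 164, 138 and 156 in the 3 day replicates 1 to 5. Every treated library lay below every untreated one, and replicate 1 was the highest of the treated. Ngfr fell by 1.04 on the log2 scale (SE 0.18, adjusted p = 0.00546), the value without 3 day replicate 1 was -1.10 (adjusted p = 5.66e-04) and that with the GC and length correction -0.95 (adjusted p = 0.028). Creb3l1, a membrane-bound transcription factor that supports collagen secretion (chr2:91982330-92024172), measured 329, 482, 406, 318 and 505 untreated and 295, 193, 214, 171 and 168 at 3 days. Creb3l1 fell by 0.97 on the log2 scale (SE 0.18, adjusted p = 0.00832), the value without 3 day replicate 1 was -1.11 (adjusted p = 2.52e-04) and that with the GC and length correction -0.89 (adjusted p = 0.0188). Madcam1, an adhesion molecule that binds lymphocytes to endothelium, measured 306, 216, 402, 234 and 331 untreated and 137, 173, 152, 154 and 164 at 3 days. Madcam1 fell by 0.89 on the log2 scale (SE 0.19, adjusted p = 0.0133), the value without 3 day replicate 1 was -0.85 (adjusted p = 0.00766) and that with the GC and length correction -0.88 (adjusted p = 0.053). Treated values of both genes lay below the untreated range in all 5 libraries. Gadl1, a decarboxylase that acts on amino acids, measured 218, 177, 310.0, 155 and 146 untreated and 103, 91.4, 87.7, 89.8 and 48.2 at 3 days. Gadl1 fell by 1.24 on the log2 scale (SE 0.28, adjusted p = 0.0183), the value without 3 day replicate 1 was -1.32 (adjusted p = 0.00538) and that with the GC and length correction -1.27 (adjusted p = 0.0442). Synpo, synaptopodin, an actin-binding protein, measured 544, 839, 598, 565 and 752 untreated and 493, 389.7, 314, 341 and 383 at 3 days. Synpo fell by 0.77 on the log2 scale (SE 0.16, adjusted p = 0.0121), the value without 3 day replicate 1 was -0.87 (adjusted p = 9.73e-04) and that with the GC and length correction -0.63 (adjusted p = 0.0287). Sdc3, the heparan sulphate proteoglycan syndecan 3, measured 2097, 3132, 2758, 2498 and 2985 untreated and 2571, 1408, 1319, 1693 and 1246 at 3 days. Replicate 1 was within the untreated range. Sdc3 fell by 0.75 on the log2 scale (SE 0.15, adjusted p = 0.0123), the value without 3 day replicate 1 was -0.92 (adjusted p = 3.09e-05) and that with the GC and length correction -0.60 (adjusted p = 0.0722). Bpifb3, a secreted protein of the BPI fold family, fell by 0.97 (adjusted p = 0.0371), with -0.93 without replicate 1 (adjusted p = 0.0323) and -0.96 under the correction (adjusted p = 0.0963). Slc26a10, a member of the anion exchanger family, fell by 0.93 (adjusted p = 0.0425), with -0.95 without replicate 1 (adjusted p = 0.0286) and -0.85 under the correction (adjusted p = 0.114). The groups of both overlapped. In the 10 fits that each omitted 1 library, Ngfr, Creb3l1, Synpo and Madcam1 passed in 10 of 10 fits. The threshold was still met by Gadl1 in 8 of 10 fits (largest adjusted p 0.0686, at -1.05, without 3 day replicate 5), Sdc3 in 9 of 10 fits (largest adjusted p 0.05, at -0.68, without 3 day replicate 3), Bpifb3 in 3 of 10 fits (largest adjusted p 0.0991, at -0.95, without 3 day replicate 3) and Slc26a10 in 2 of 10 fits (largest adjusted p 0.129, at -0.81, without 3 day replicate 5).

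In the list of fibroblastic reticular and stromal cells, 0 of 22 genes passed with limma or edgeR and 2 fell with DESeq2, while Cxcl13 passed as lower with limma after the GC and length correction. Without replicate 1, 1 was lower (4.55%, against 15.2% of all genes), namely Cxcl13. An unadjusted p under 0.05 was reached by 5, a share close to the 22% of all genes, and 19 had a log2 fold change below 0, with a median of -0.29. The summed level of the list was 119831 to 229806 untreated and 110355 to 119359 at 3 days, so the groups nearly touched, and 0 of its markers were at 0 in all 10 libraries. Cxcl13, the chemokine of follicular stroma that draws B cells, measured 1782, 2038, 3426, 1737 and 2601 untreated and 1784, 1648, 1278, 1835 and 1294 at 3 days. Cxcl13 gave a difference of -0.53 on the log2 scale (SE 0.17, adjusted p = 0.0623), the value without 3 day replicate 1 was -0.58 (adjusted p = 0.0309) and that with the GC and length correction -0.74 (adjusted p = 0.0489). With the mean of this list as a covariate, limma called 2653 genes, against 1013 without it. In that fit Ngfr differed by -0.99, Creb3l1 by -0.75 and Madcam1 by -0.95, each with an adjusted p under 0.05. The covariate came from the same libraries, and whether fewer stromal cells lie behind these falls was not tested. Endothelial genes gave 0 calls with limma and edgeR and 1 rise with DESeq2 among 16 (median -0.049, 1 with an unadjusted p under 0.05), with a summed level of 27058 to 31740 untreated and 27102 to 29858 at 3 days. Without replicate 1, 1 was higher and 1 lower (12.5%, against 15.2% of all genes). Esam, an adhesion molecule of endothelial junctions, was at 0.43 (adjusted p = 0.0184, and 0.0166 with the correction, against 0.36 and 0.0763 with all libraries), and Cdh5, the endothelial cadherin, at -0.31 (adjusted p = 0.0136, and 0.0429 with the correction, against -0.19 and 0.332 with all libraries). In the list of vessel and lymphatic markers of lymph nodes, Madcam1 was the only member of 8 called with or without replicate 1 (12.5% called, and 12.5% without replicate 1, against 5.55% and 15.2% of all genes), and Glycam1 differed by 0.027 (adjusted p = 0.951, and 0.868 without replicate 1). In the list of spleen markers, of which 5 of 9 passed the filter (20% called, and 20% without replicate 1, against the same shares), the gene called was Treml4, a receptor of splenic macrophages and dendritic cells, which measured 158, 164, 196, 152 and 179 untreated and 139, 124, 66.2, 133 and 93 at 3 days. Treml4 fell by 0.65 on the log2 scale (SE 0.16, adjusted p = 0.0249), the value without 3 day replicate 1 was -0.74 (adjusted p = 0.0036) and that with the GC and length correction -0.70 (adjusted p = 0.0579). When each library was dropped in turn, the call was held by Treml4 in 7 of 10 fits (largest adjusted p 0.082, at -0.60, without 3 day replicate 5).

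The lymphocyte lists held 6 calls, namely Klf2, Bcl11b, Lef1, Spib, Prdm1 and Fas. In the T cell list, 0 of 22 tested members rose and 3 fell, with 1 and 4 without replicate 1 (13.6% called, and 22.7% without replicate 1, against 5.55% and 15.2% of all genes), and the median log2 fold change was -0.11. Klf2, a transcription factor that holds T cells at rest and drives their recirculation, had normalised counts of 9523, 7243, 8876, 7742 and 6445 in untreated replicates 1 to 5 and of 5822, 4027, 3698, 5505 and 4828 in the 3 day replicates 1 to 5. The groups did not overlap. Klf2 fell by 0.75 on the log2 scale (SE 0.18, adjusted p = 0.0224), the value without 3 day replicate 1 was -0.82 (adjusted p = 0.00506) and that with the GC and length correction -0.68 (adjusted p = 0.122). Bcl11b, a factor of T cell identity, measured 873, 695, 688, 856 and 655 untreated and 693, 499, 403, 485 and 397 at 3 days. Bcl11b fell by 0.62 on the log2 scale (SE 0.17, adjusted p = 0.0353), the value without 3 day replicate 1 was -0.75 (adjusted p = 0.00325) and that with the GC and length correction -0.52 (adjusted p = 0.181). Lef1, a Wnt pathway factor of naive T cells, measured 6038, 4390.3, 4922, 4791 and 4020.3 untreated and 4391, 3010.1, 2886, 3558 and 2882 at 3 days. Lef1 fell by 0.54 on the log2 scale (SE 0.15, adjusted p = 0.0466), the value without 3 day replicate 1 was -0.64 (adjusted p = 0.00698) and that with the GC and length correction -0.51 (adjusted p = 0.142). Its partner Tcf7 passed only without replicate 1, at -0.60 (adjusted p = 0.0169, and 0.0661 with the correction, against -0.50 and 0.0734 with all libraries). So did the receptor chain Cd3d, at 0.48 (adjusted p = 0.0497, and 0.211 with the correction, against 0.31 and 0.344 with all libraries). For Bcl11b and Lef1 replicate 1 lay within the untreated range and the other 4 below it. Over the 10 fits lacking 1 library each, the call was held by Klf2 in 6 of 10 fits (largest adjusted p 0.0808, at -0.66, without 3 day replicate 3), Bcl11b in 2 of 10 fits (largest adjusted p 0.116, at -0.55, without 3 day replicate 5) and Lef1 in 1 of 10 fits (largest adjusted p 0.132, at -0.49, without 3 day replicate 5). The summed level of the T cell list was 127643 to 184654 untreated and 125951 to 159592 at 3 days. Of 9 regulatory T cell genes and 15 of natural killer and cytotoxic cells, 0 passed with limma, edgeR or DESeq2, and 1 and 3 had an unadjusted p under 0.05. Without replicate 1, 0 genes of the first list and 2 of the second passed (13.3% of the second, near the 15.2% of all genes). There the granzyme gene Gzmb passed as lower, at -0.85 (adjusted p = 0.0422, and 0.0244 with the correction, against -0.67 and 0.157 with all libraries), and kept its call with the correction. The receptor Klrd1 passed as higher, at 0.42 (adjusted p = 0.0308, and 0.875 with the correction, against 0.32 and 0.153 with all libraries), and with the correction and all libraries it was at -0.02, so its sign turned.

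In the B cell list, 0 of 14 tested members rose and 1 fell, with 0 and 2 without replicate 1 (7.14% called, and 14.3% without replicate 1, against 5.55% and 15.2% of all genes), and the median log2 fold change was -0.12. Spib, a factor of B cell receptor signalling, fell by 0.40 (adjusted p = 0.0463), with -0.48 without replicate 1 (adjusted p = 0.00615) and -0.36 under the correction (adjusted p = 0.209). In the plasma cell list, 0 of 11 tested members rose and 1 fell, with 0 and 2 without replicate 1 (9.09% called, and 18.2% without replicate 1, against 5.55% and 15.2% of all genes), and the median log2 fold change was -0.31, with a summed level of 236553 to 380333 untreated and 231344 to 277952 at 3 days. Prdm1, the master regulator of plasma cells, measured 161, 168, 168, 200.1 and 171 untreated and 125, 116, 137, 128 and 117 at 3 days. The groups did not overlap. Prdm1 fell by 0.47 on the log2 scale (SE 0.12, adjusted p = 0.0292), the value without 3 day replicate 1 was -0.47 (adjusted p = 0.017) and that with the GC and length correction -0.45 (adjusted p = 0.107). Fas, a death receptor on the germinal centre and p53 lists, rose by 0.37 (adjusted p = 0.0239), with 0.42 without replicate 1 (adjusted p = 0.00301) and 0.22 under the correction (adjusted p = 0.243). In the antigen receptor signalling list, 1 of 30 tested members rose and 2 fell, with 2 and 8 without replicate 1 (10% called, and 33.3% without replicate 1, against 5.55% and 15.2% of all genes), and the median log2 fold change was -0.086. Syk, the kinase next to the B cell receptor, fell by 0.38 (adjusted p = 0.0261), with -0.44 without replicate 1 (adjusted p = 0.00385) and -0.27 under the correction (adjusted p = 0.316). Nfatc1, a calcium-driven factor, fell by 0.49 (adjusted p = 0.0235), with -0.61 without replicate 1 (adjusted p = 2.14e-04) and -0.39 under the correction (adjusted p = 0.15). Bcl10, an adaptor towards NF-kB, rose by 0.36 (adjusted p = 0.0424), with 0.44 without replicate 1 (adjusted p = 0.00369) and 0.28 under the correction (adjusted p = 0.238). None of these 6 genes passed with the GC and length correction on all 10 libraries. With 1 library left out at a time, the call was held by Spib in 1 of 10 fits (largest adjusted p 0.137, at -0.36, without 3 day replicate 5), Prdm1 in 3 of 10 fits (largest adjusted p 0.0883, at -0.45, without 3 day replicate 5), Fas in 4 of 10 fits (largest adjusted p 0.0857, at 0.32, without 3 day replicate 3), Syk in 5 of 10 fits (largest adjusted p 0.0931, at -0.32, without 3 day replicate 3), Nfatc1 in 4 of 10 fits (largest adjusted p 0.0849, at -0.43, without 3 day replicate 3) and Bcl10 in 2 of 10 fits (largest adjusted p 0.118, at 0.34, without 3 day replicate 3).

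Of the dendritic cell genes, Xcr1, Clec9a and Irf8 fell, while 10 of 16 lay above 0. In the dendritic cell list, 0 of 16 tested members rose and 3 fell, with 3 and 4 without replicate 1 (18.8% called, and 43.8% without replicate 1, against 5.55% and 15.2% of all genes), and the median log2 fold change was 0.13. Xcr1, the chemokine receptor that marks cross-presenting dendritic cells, had normalised counts of 1932, 1872, 1944, 1598 and 1615 in untreated replicates 1 to 5 and of 1472, 1390.2, 1227, 1400.3 and 1124 in the 3 day replicates 1 to 5. Xcr1 fell by 0.44 on the log2 scale (SE 0.11, adjusted p = 0.0249), the value without 3 day replicate 1 was -0.48 (adjusted p = 0.00658) and that with the GC and length correction -0.49 (adjusted p = 0.0635). Clec9a, a receptor of the same cells for dead cells, measured 234, 304, 307, 265 and 265 untreated and 206, 203, 166, 224 and 193 at 3 days. Clec9a fell by 0.47 on the log2 scale (SE 0.13, adjusted p = 0.0353), the value without 3 day replicate 1 was -0.48 (adjusted p = 0.0192) and that with the GC and length correction -0.53 (adjusted p = 0.0635). Irf8, a factor on which these cells depend, measured 8147, 7069.6, 7181, 6553 and 6559 untreated and 6135, 5418, 5079.8, 6016 and 5524 at 3 days. Irf8 fell by 0.33 on the log2 scale (SE 0.10, adjusted p = 0.0492), the value without 3 day replicate 1 was -0.36 (adjusted p = 0.0196) and that with the GC and length correction -0.29 (adjusted p = 0.277). In all 3 genes every treated library lay below every untreated one. Without replicate 1, Batf3, another factor of these cells, went the opposite way, at 0.38 (adjusted p = 0.0363, and 0.143 with the correction, against 0.29 and 0.184 with all libraries). Sirpa, a marker of the other conventional subset, was at -0.55 (adjusted p = 0.00125, and 0.0308 with the correction, against -0.42 and 0.0545 with all libraries). In the 10 fits that each omitted 1 library, the call was held by Xcr1 in 5 of 10 fits (largest adjusted p 0.0871, at -0.38, without 3 day replicate 5), Clec9a in 2 of 10 fits (largest adjusted p 0.118, at -0.41, without 3 day replicate 3) and Irf8 in 1 of 10 fits (largest adjusted p 0.14, at -0.30, without 3 day replicate 3). The summed level of the list, which spans other dendritic cells too, was 48075 to 74315 untreated and 54704 to 72597 at 3 days. In the macrophage list, 0 of 17 tested members rose and 2 fell, with 0 and 2 without replicate 1 (11.8% called, and 11.8% without replicate 1, against 5.55% and 15.2% of all genes), and the median log2 fold change was -0.11. Timd4, a phosphatidylserine receptor of resident macrophages, measured 7426, 8524, 10030, 6629.7 and 9149 untreated and 7638, 5217, 5092, 5972 and 4040.0 at 3 days. Timd4 fell by 0.60 on the log2 scale (SE 0.15, adjusted p = 0.0302), the value without 3 day replicate 1 was -0.72 (adjusted p = 0.00239) and that with the GC and length correction -0.69 (adjusted p = 0.052). Cd68, a lysosomal glycoprotein, measured 3418, 3709.9, 4201, 3138 and 3361 untreated and 3441, 2514, 2447, 2818 and 1985 at 3 days. Cd68 fell by 0.45 on the log2 scale (SE 0.12, adjusted p = 0.0296), the value without 3 day replicate 1 was -0.55 (adjusted p = 0.00131) and that with the GC and length correction -0.51 (adjusted p = 0.0741). Replicate 1 lay within the untreated range for both. When each library was dropped in turn, the call was held by Timd4 in 3 of 10 fits (largest adjusted p 0.104, at -0.49, without 3 day replicate 5) and Cd68 in 2 of 10 fits (largest adjusted p 0.0978, at -0.35, without 3 day replicate 5).

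Of the respiratory chain, 9 nuclear genes rose, and none of the 6 listed rows of the mitochondrial genome was above 0. In the list of nuclear-encoded subunits, 9 of 73 tested members rose and 0 fell, with 23 and 1 without replicate 1 (12.3% called, and 32.9% without replicate 1, against 5.55% and 15.2% of all genes), and the median log2 fold change was 0.18, and 64 of the members were above 0. Cox5a, a subunit of cytochrome c oxidase, had normalised counts of 2524, 2650.2, 3029.8, 2582 and 2232 in untreated replicates 1 to 5 and of 2485, 4475, 4799, 4473 and 5204 in the 3 day replicates 1 to 5. Replicate 1 lay among the untreated libraries and the other 4 above them. Cox5a rose by 0.68 on the log2 scale (SE 0.15, adjusted p = 0.0167), the value without 3 day replicate 1 was 0.87 (adjusted p = 2.10e-05) and that with the GC and length correction 0.53 (adjusted p = 0.0483). Atp5l, subunit g of the ATP synthase, measured 760.1, 703, 813, 565 and 707 untreated and 599, 1365, 1332, 1297 and 1601 at 3 days. Atp5l rose by 0.74 on the log2 scale (SE 0.19, adjusted p = 0.0293), the value without 3 day replicate 1 was 0.98 (adjusted p = 2.28e-05) and that with the GC and length correction 0.57 (adjusted p = 0.0963). Uqcrfs1, the iron-sulphur protein of complex III, measured 3451, 4043, 4109, 4234 and 3733 untreated and 4341, 5642, 5718, 5518 and 7341 at 3 days. Uqcrfs1 rose by 0.53 on the log2 scale (SE 0.13, adjusted p = 0.0261), the value without 3 day replicate 1 was 0.62 (adjusted p = 0.00248) and that with the GC and length correction 0.42 (adjusted p = 0.065). Ndufc1, a subunit of complex I that is not on the list, measured 488, 557, 583, 511 and 526 untreated and 585, 1049.5, 1053, 962 and 1342 at 3 days. Ndufc1 rose by 0.86 on the log2 scale (SE 0.19, adjusted p = 0.0139), the value without 3 day replicate 1 was 1.04 (adjusted p = 2.32e-04) and that with the GC and length correction 0.70 (adjusted p = 0.053). Cox19, which helps to assemble cytochrome c oxidase, measured 422, 492, 504, 529 and 461 untreated and 659, 825, 892, 766 and 906 at 3 days. Cox19 rose by 0.74 on the log2 scale (SE 0.15, adjusted p = 0.0114), the value without 3 day replicate 1 was 0.81 (adjusted p = 0.00126) and that with the GC and length correction 0.73 (adjusted p = 0.0188). Treated libraries lay above all untreated ones for Uqcrfs1, Ndufc1 and Cox19. Over the 10 fits lacking 1 library each, Cox19 passed in 10 of 10 fits. The threshold was still met by Cox5a in 7 of 10 fits (largest adjusted p 0.0675, at 0.60, without 3 day replicate 5), Atp5l in 2 of 10 fits (largest adjusted p 0.0995, at 0.63, without 3 day replicate 5), Uqcrfs1 in 4 of 10 fits (largest adjusted p 0.0903, at 0.43, without 3 day replicate 5) and Ndufc1 in 8 of 10 fits (largest adjusted p 0.0576, at 0.74, without 3 day replicate 5).

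Rows of the mitochondrial genome outside the respiratory chain list, among them mt-Rnr1, also passed the filter and are not counted here. The 6 rows on that list, several of which span neighbouring genes, gave 0 calls with limma, edgeR and DESeq2. Of these, 1 had an unadjusted p under 0.05, and the median was -0.35. Without replicate 1, 4 were lower (66.7%, against 15.2% of all genes), with a median of -0.61. Their summed level ranged from 1799319 to 4346307 at 3 days, with a median of 2094412 and replicate 1 the highest, and from 2585760 to 2931390 untreated. Neither the tricarboxylic acid cycle (19 genes, 3 with an unadjusted p under 0.05, median 0.088) nor fatty acid oxidation (29 genes, 5 with an unadjusted p under 0.05, median 0.17) held a call with limma or edgeR. DESeq2 called 1 rise in the cycle and 1 fall in oxidation, and limma without replicate 1 called 1 rise in each (5.26% and 3.45%, against 15.2% of all genes). Among glycolytic genes, 2 of 19 tested members rose and 0 fell, with 2 and 3 without replicate 1 (10.5% called, and 26.3% without replicate 1, against 5.55% and 15.2% of all genes), and the median log2 fold change was 0.062. Pgk1, which makes ATP in the path, rose by 0.55 (adjusted p = 0.026), with 0.73 without replicate 1 (adjusted p = 2.77e-06) and 0.48 under the correction (adjusted p = 0.0824). Its replicate 1 at 3 days lay below all untreated libraries. Pgam1, the mutase that follows it, rose by 0.46 (adjusted p = 0.0261), with 0.55 without replicate 1 (adjusted p = 0.00147) and 0.43 under the correction (adjusted p = 0.0369). With 1 library left out at a time, the call was held by Pgk1 in 3 of 10 fits (largest adjusted p 0.0883, at 0.49, without 3 day replicate 5) and Pgam1 in 4 of 10 fits (largest adjusted p 0.0898, at 0.37, without 3 day replicate 5). Gapdh was lower without replicate 1, at -0.50 (adjusted p = 0.00316, and 9.59e-04 with the correction, against -0.36 and 0.106 with all libraries).

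Counts of calls among genes of protein synthesis and breakdown differed with and without 3 day replicate 1. For cytoplasmic ribosomal proteins, 1 of 79 tested members rose and 0 fell, with 26 and 2 without replicate 1 (1.27% called, and 35.4% without replicate 1, against 5.55% and 15.2% of all genes), and the median log2 fold change was 0.16, and 0.27 without replicate 1. These genes have many processed copies, so their counts may include shared reads. Rps12, the member called with all libraries, in a row that also holds 2 small nucleolar RNAs, measured 3581, 2912, 4459, 3219.8 and 3250.3 untreated and 2719, 6307, 5859, 6772 and 6004 at 3 days. Rps12 rose by 0.61 on the log2 scale (SE 0.17, adjusted p = 0.0451), the value without 3 day replicate 1 was 0.85 (adjusted p = 8.03e-06) and that with the GC and length correction 0.51 (adjusted p = 0.103). Rpl22l1, a paralogue of Rpl22 that is not on the list and showed the largest rise of the called genes given here, measured 893, 760.4, 1169, 973 and 775 untreated and 585, 2698, 2709, 3085 and 2693 at 3 days. Replicate 1 was below all untreated libraries and the other 4 were more than 2-fold above them. Rpl22l1 rose by 1.18 on the log2 scale (SE 0.31, adjusted p = 0.0302), the value without 3 day replicate 1 was 1.63 (adjusted p = 4.75e-07) and that with the GC and length correction 0.92 (adjusted p = 0.1). For mitochondrial ribosomal proteins, 6 of 75 tested members rose and 2 fell, with 17 and 7 without replicate 1 (10.7% called, and 32% without replicate 1, against 5.55% and 15.2% of all genes), and the median log2 fold change was 0.049. With the GC and length correction there were 0 rises and 1 fall with all libraries and 10 rises and 12 falls without replicate 1 (0.644% and 9.13% of all genes called), with medians of -0.0034 and 0.026. Mrps14, the largest rise of this list, rose by 0.60 (adjusted p = 0.0265), with 0.80 without replicate 1 (adjusted p = 4.19e-06) and 0.46 under the correction (adjusted p = 0.144). Of the falls, those with all libraries were in the small subunit genes Mrps5 and Mrps2. Mrps5 fell by 0.36 (adjusted p = 0.0133), with -0.43 without replicate 1 (adjusted p = 1.55e-04) and -0.36 under the correction (adjusted p = 0.0635). Mrps2 fell by 0.25 (adjusted p = 0.0378), with -0.31 without replicate 1 (adjusted p = 0.00218) and -0.31 under the correction (adjusted p = 0.0569). For the proteasome, 5 of 33 tested members rose and 0 fell, with 14 and 2 without replicate 1 (15.2% called, and 48.5% without replicate 1, against 5.55% and 15.2% of all genes), and the median log2 fold change was 0.14. Psma3, a subunit of its core, rose by 0.52 (adjusted p = 0.0139), with 0.64 without replicate 1 (adjusted p = 8.88e-05) and 0.40 under the correction (adjusted p = 0.101). Psmd6, of its cap, measured 1565, 1562, 1707, 1348 and 1429.5 untreated and 1522, 2376, 2311, 2366 and 2358 at 3 days. Psmd6 rose by 0.51 (adjusted p = 0.0114), with 0.63 without replicate 1 (adjusted p = 5.58e-06) and 0.38 under the correction (adjusted p = 0.0635). With the GC and length correction and all libraries, which called 0.644% of all genes, 0 cytoplasmic ribosomal and 0 proteasome genes rose, 1 proteasome gene, Psmb2, passed as lower (adjusted p = 0.0369, against 0.0532 without it), and 1 nuclear respiratory gene, Cox5a, rose. Without replicate 1 that correction gave 13, 9 and 17 rises and 2, 2 and 3 falls, in a fit that called 4.82% of all genes higher and 4.31% lower. In the 10 fits that each omitted 1 library, Psmd6 passed in 10 of 10 fits. The call was kept by Rps12 in 2 of 10 fits (largest adjusted p 0.126, at 0.57, without 3 day replicate 5), Rpl22l1 in 2 of 10 fits (largest adjusted p 0.1, at 1.07, without 3 day replicate 3), Mrps14 in 2 of 10 fits (largest adjusted p 0.0915, at 0.54, without 3 day replicate 3) and Psma3 in 8 of 10 fits (largest adjusted p 0.0553, at 0.48, without 3 day replicate 5).

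**Figure D4:**
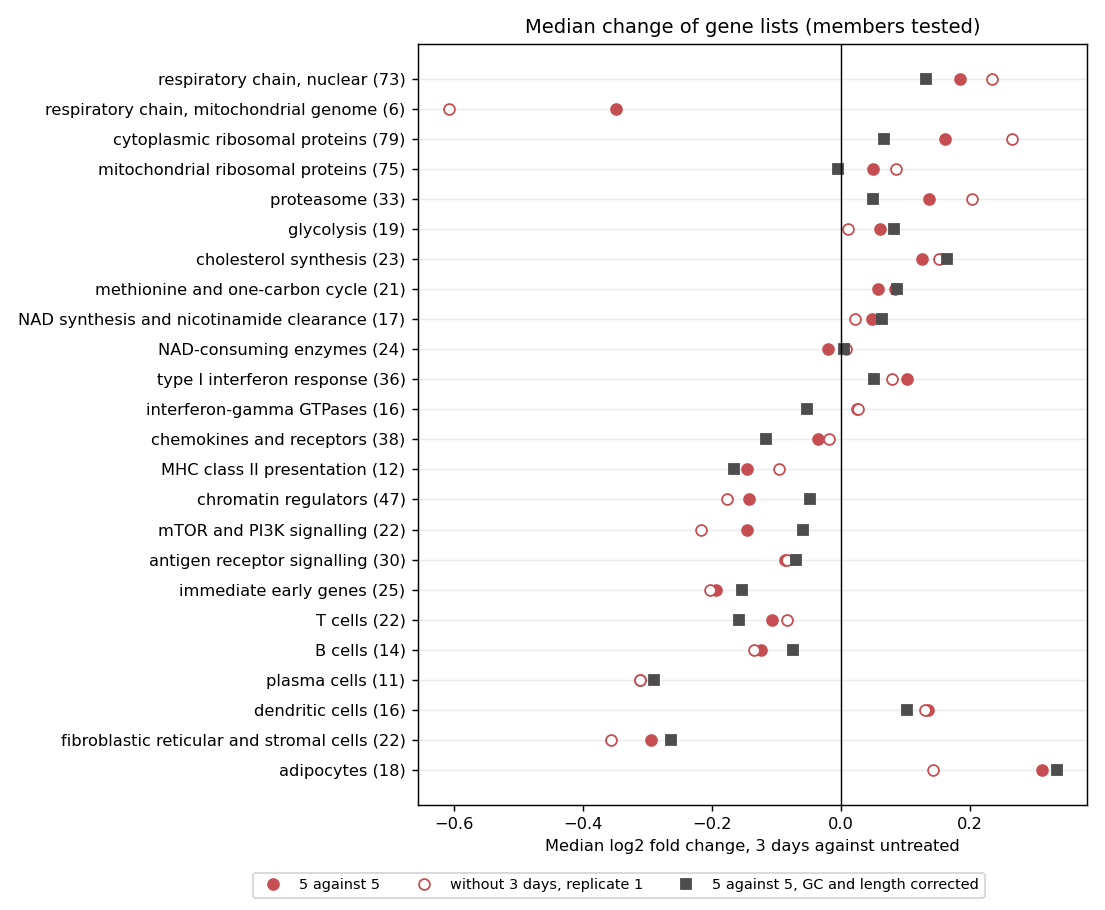
Median log2 fold change at 3 days of 24 gene lists, with the number of members tested, for all libraries (filled circles), without replicate 1 at 3 days (open circles) and with the GC and length correction (squares), which had no transcript value for the mitochondrial genome. The line marks the median over all genes. Nuclear respiratory genes lie at 0.18 with all libraries and 0.23 without replicate 1. The 6 listed rows of the mitochondrial genome lie at -0.35 and -0.61.

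Among chromatin regulators, 0 of 47 tested members rose and 7 fell, with 0 and 17 without replicate 1 (14.9% called, and 36.2% without replicate 1, against 5.55% and 15.2% of all genes), and the median log2 fold change was -0.14. Of these, 39 lay below 0. Smarca4, the ATPase of the BAF remodelling complex, had normalised counts of 2309.8, 2315, 2004, 2597 and 2667 in untreated replicates 1 to 5 and of 2657, 1449, 1311, 1482 and 1491 in the 3 day replicates 1 to 5. Replicate 1 was within the untreated range and the other 4 below it. Smarca4 fell by 0.55 on the log2 scale (SE 0.13, adjusted p = 0.0239), the value without 3 day replicate 1 was -0.72 (adjusted p = 4.26e-06) and that with the GC and length correction -0.40 (adjusted p = 0.0889). Gltscr1, a further BAF subunit, outside the list, measured 1205, 957, 980.3, 1106 and 984 untreated and 938, 582, 542, 615 and 501 at 3 days. Here all treated libraries lay below the untreated ones. Gltscr1 fell by 0.75 on the log2 scale (SE 0.13, adjusted p = 0.00546), and the value without 3 day replicate 1 was -0.90 (adjusted p = 3.33e-06). Kdm2a, a histone demethylase, fell by 0.41 (adjusted p = 0.0108), with -0.49 without replicate 1 (adjusted p = 3.28e-05) and -0.32 under the correction (adjusted p = 0.132). Tet3, a methylcytosine dioxygenase, fell by 0.56 (adjusted p = 0.048), with -0.72 without replicate 1 (adjusted p = 0.00157) and -0.40 under the correction (adjusted p = 0.126). With the GC and length correction the list had 0 calls with all libraries, 7 falls without replicate 1 (0.644% of all genes called, and 4.31% lower without replicate 1) and a median of -0.048. When each library was dropped in turn, Gltscr1 and Kdm2a passed in 10 of 10 fits. The threshold was still met by Smarca4 in 4 of 10 fits (largest adjusted p 0.0865, at -0.47, without 3 day replicate 3) and Tet3 in 2 of 10 fits (largest adjusted p 0.146, at -0.46, without 3 day replicate 3). Among splicing factors, 2 of 44 tested members rose and 3 fell, with 8 and 7 without replicate 1 (11.4% called, and 34.1% without replicate 1, against 5.55% and 15.2% of all genes), and the median log2 fold change was -0.021. Srsf3, an SR protein, rose by 0.44 (adjusted p = 0.026), with 0.57 without replicate 1 (adjusted p = 1.38e-04) and 0.30 under the correction (adjusted p = 0.199). Srsf10, its relative, rose by 0.36 (adjusted p = 0.0148), with 0.40 without replicate 1 (adjusted p = 0.00203) and 0.28 under the correction (adjusted p = 0.121). Srrm1, an SR-related coactivator, fell by 0.47 (adjusted p = 0.0139), with -0.59 without replicate 1 (adjusted p = 6.26e-06) and -0.43 under the correction (adjusted p = 0.072). Srsf5, another SR protein, fell by 0.46 (adjusted p = 0.0239), with -0.49 without replicate 1 (adjusted p = 0.00819) and -0.59 under the correction (adjusted p = 0.0369). Over the 10 fits lacking 1 library each, the call was held by Srsf3 in 2 of 10 fits (largest adjusted p 0.0901, at 0.40, without 3 day replicate 3), Srsf10 in 8 of 10 fits (largest adjusted p 0.0594, at 0.33, without 3 day replicate 5), Srrm1 in 8 of 10 fits (largest adjusted p 0.0558, at -0.43, without 3 day replicate 5) and Srsf5 in 5 of 10 fits (largest adjusted p 0.0794, at -0.42, without 3 day replicate 5).

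The signalling lists held calls in both directions. Among immediate early genes, 0 of 25 tested members rose and 2 fell, with 1 and 3 without replicate 1 (8% called, and 16% without replicate 1, against 5.55% and 15.2% of all genes), and the median log2 fold change was -0.19. Dusp6, a phosphatase that is induced by and restrains ERK, measured 1375, 1271, 1398, 1264 and 1483 untreated and 876, 970.2, 912, 1130.2 and 1036 at 3 days. Dusp6 fell by 0.47 on the log2 scale (SE 0.075, adjusted p = 0.00523), the value without 3 day replicate 1 was -0.43 (adjusted p = 7.45e-04) and that with the GC and length correction -0.50 (adjusted p = 0.0279). Myc, a driver of cell growth, measured 1995, 1769, 1946, 1561 and 1701 untreated and 1506, 1205, 1282, 1421 and 1221 at 3 days. Myc fell by 0.43 on the log2 scale (SE 0.091, adjusted p = 0.0133), the value without 3 day replicate 1 was -0.48 (adjusted p = 0.00146) and that with the GC and length correction -0.43 (adjusted p = 0.0844). The groups of both genes did not overlap. In the mTOR and PI3K list, 1 of 22 tested members rose and 2 fell, with 2 and 7 without replicate 1 (13.6% called, and 40.9% without replicate 1, against 5.55% and 15.2% of all genes), and the median log2 fold change was -0.15. Rheb, the activator of mTOR complex 1, rose by 0.37 (adjusted p = 0.00848), with 0.38 without replicate 1 (adjusted p = 0.00144) and 0.27 under the correction (adjusted p = 0.0617). Foxo1, a factor switched off by Akt that is known to drive Klf2, fell by 0.33 (adjusted p = 0.0346), with -0.41 without replicate 1 (adjusted p = 0.00148) and -0.24 under the correction (adjusted p = 0.325). Foxo3, its relative, fell by 0.43 (adjusted p = 0.0333), with -0.53 without replicate 1 (adjusted p = 0.00153) and -0.30 under the correction (adjusted p = 0.21). Klf11, a repressor of the same family as Klf2, also fell. Klf11 measured 218, 165, 242, 337 and 334 untreated and 157, 126, 126, 109 and 124 at 3 days. Klf11 fell by 0.96 on the log2 scale (SE 0.21, adjusted p = 0.0156), the value without 3 day replicate 1 was -1.04 (adjusted p = 0.00392) and that with the GC and length correction -0.95 (adjusted p = 0.0397). For Notch and Wnt genes, 0 of 23 tested members rose and 2 fell, with 2 and 4 without replicate 1 (8.7% called, and 26.1% without replicate 1, against 5.55% and 15.2% of all genes), and the median log2 fold change was -0.12. Dtx1, a Notch target, fell by 0.59 (adjusted p = 0.0311), with -0.67 without replicate 1 (adjusted p = 0.00723) and -0.43 under the correction (adjusted p = 0.303). Axin2, a Wnt target, fell by 0.33 (adjusted p = 0.0224), with -0.40 without replicate 1 (adjusted p = 8.18e-04) and -0.25 under the correction (adjusted p = 0.171). For NF-kB and cytokine genes, 1 of 21 tested members rose and 0 fell, with 1 and 1 without replicate 1 (4.76% called, and 9.52% without replicate 1, against 5.55% and 15.2% of all genes), and the median log2 fold change was -0.04. The call was Il15, a cytokine that maintains natural killer and memory T cells. Il15 measured 246, 249, 233, 259.7 and 204 untreated and 239, 349, 386, 403 and 395 at 3 days. Il15 rose by 0.55 on the log2 scale (SE 0.14, adjusted p = 0.0257), the value without 3 day replicate 1 was 0.69 (adjusted p = 4.24e-04) and that with the GC and length correction 0.49 (adjusted p = 0.103). With 1 library left out at a time, Dusp6, Rheb and Myc passed in 10 of 10 fits. The call was kept by Klf11 in 8 of 10 fits (largest adjusted p 0.0522, at -0.96, without 3 day replicate 3), Foxo1 in 1 of 10 fits (largest adjusted p 0.119, at -0.28, without 3 day replicate 3), Foxo3 in 2 of 10 fits (largest adjusted p 0.115, at -0.36, without 3 day replicate 3), Dtx1 in 3 of 10 fits (largest adjusted p 0.0948, at -0.56, without 3 day replicate 3), Axin2 in 4 of 10 fits (largest adjusted p 0.0798, at -0.29, without 3 day replicate 5) and Il15 in 5 of 10 fits (largest adjusted p 0.0857, at 0.51, without 3 day replicate 3).

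Genes of the stress, clock and sterol lists held the following calls. Cebpg, a partner of Atf4 in the amino acid response, measured 2452, 2764, 2935, 2871 and 2949 untreated and 3643, 3654, 4112, 3572 and 3874 at 3 days. Cebpg rose by 0.43 on the log2 scale (SE 0.065, adjusted p = 0.00472), the value without 3 day replicate 1 was 0.45 (adjusted p = 2.36e-04) and that with the GC and length correction 0.41 (adjusted p = 0.0215). For ATF4 targets, 1 of 25 tested members rose and 0 fell, with 3 and 0 without replicate 1 (4% called, and 12% without replicate 1, against 5.55% and 15.2% of all genes), and the median log2 fold change was 0.076. Nr1d2, a repressor of the circadian clock, measured 824, 1016, 734, 1021 and 949.6 untreated and 1268, 1206, 1352, 1200.4 and 1256 at 3 days. Nr1d2 rose by 0.48 on the log2 scale (SE 0.10, adjusted p = 0.0153), the value without 3 day replicate 1 was 0.47 (adjusted p = 0.00746) and that with the GC and length correction 0.43 (adjusted p = 0.0369). Cry1, also a clock repressor, rose by 0.38 (adjusted p = 0.0249), with 0.47 without replicate 1 (adjusted p = 2.08e-04) and 0.39 under the correction (adjusted p = 0.075). For clock genes, 2 of 19 tested members rose and 0 fell, with 2 and 1 without replicate 1 (10.5% called, and 15.8% without replicate 1, against 5.55% and 15.2% of all genes), and the median log2 fold change was 0.087. Idi1, the isomerase of the cholesterol pathway, measured 1769.6, 1555, 1943, 1632 and 1574 untreated and 2182, 2231, 3306, 2383 and 2361 at 3 days. Idi1 rose by 0.54 on the log2 scale (SE 0.11, adjusted p = 0.0108), the value without 3 day replicate 1 was 0.59 (adjusted p = 0.00128) and that with the GC and length correction 0.45 (adjusted p = 0.0579). Msmo1, a later enzyme of the same pathway, rose by 0.46 (adjusted p = 0.0292), with 0.56 without replicate 1 (adjusted p = 0.00137) and 0.36 under the correction (adjusted p = 0.13). Srebf2, which drives these genes, fell by 0.44 (adjusted p = 0.018), with -0.52 without replicate 1 (adjusted p = 8.55e-04) and -0.30 under the correction (adjusted p = 0.198). For cholesterol synthesis, 2 of 23 tested members rose and 1 fell, with 3 and 1 without replicate 1 (13% called, and 17.4% without replicate 1, against 5.55% and 15.2% of all genes), and the median log2 fold change was 0.13. Acat2, which makes acetoacetyl-CoA ahead of the pathway, rose by 0.92 (adjusted p = 0.0407), with 0.91 without replicate 1 (adjusted p = 0.0313) and 0.88 under the correction (adjusted p = 0.0635). Its groups overlapped. Zfp654, a zinc finger protein, measured 322, 383, 482, 385 and 419 untreated and 569, 627, 701, 660.2 and 673 at 3 days. Zfp654 rose by 0.71 on the log2 scale (SE 0.12, adjusted p = 0.00682), the value without 3 day replicate 1 was 0.75 (adjusted p = 6.72e-04) and that with the GC and length correction 0.59 (adjusted p = 0.0369). Igip, which encodes an inducer of IgA, measured 161, 193, 215, 239 and 257 untreated and 326, 379.6, 446, 300.3 and 427 at 3 days. Igip rose by 0.82 on the log2 scale (SE 0.15, adjusted p = 0.00807), the value without 3 day replicate 1 was 0.87 (adjusted p = 0.00106) and that with the GC and length correction 0.63 (adjusted p = 0.0369). Hist1h1c, the linker histone H1.2, measured 606, 711, 816, 862 and 809 untreated and 1140.2, 1233, 1265, 1092 and 1112 at 3 days. Hist1h1c rose by 0.63 on the log2 scale (SE 0.13, adjusted p = 0.0133), the value without 3 day replicate 1 was 0.63 (adjusted p = 0.00522) and that with the GC and length correction 0.61 (adjusted p = 0.0219). Treated libraries lay above all untreated ones for Cebpg, Nr1d2, Idi1, Zfp654, Igip and Hist1h1c. In the 10 fits that each omitted 1 library, Cebpg, Zfp654, Igip and Idi1 passed in 10 of 10 fits. The threshold was still met by Nr1d2 in 9 of 10 fits (largest adjusted p 0.0563, at 0.45, without 3 day replicate 3), Hist1h1c in 9 of 10 fits (largest adjusted p 0.0517, at 0.60, without 3 day replicate 3), Cry1 in 4 of 10 fits (largest adjusted p 0.0871, at 0.33, without 3 day replicate 5), Msmo1 in 2 of 10 fits (largest adjusted p 0.103, at 0.39, without 3 day replicate 3), Srebf2 in 7 of 10 fits (largest adjusted p 0.0684, at -0.40, without 3 day replicate 5) and Acat2 in 3 of 10 fits (largest adjusted p 0.116, at 0.86, without 3 day replicate 5).

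Values at the other durations are set beside those at 3 days, since all share the same untreated libraries. Against untreated, 3030 genes (16.6%) differed at 1 day, and 0 (0%) at 14 days with limma, where 510 had an unadjusted p under 0.05. At 1 day, Mat2a stood at 0.58 and at 14 days at 0.23 (log2 fold change), Ngfr at -1.18 and -0.42, and Klf2 at -0.95 and -0.06. Isg15 stood at 1.19 at 1 day against 0.35 at 3 days, and the median of the interferon list at 0.57 against 0.10. In the direct contrast of 3 days with 1 day, 1 gene differed (0.00548% of 18243), a row without a symbol that was higher at 3 days, with 1273 genes at an unadjusted p under 0.05. In the direct contrast of 3 with 14 days, 192 genes differed (1.05%), 107 higher (0.587%) and 85 lower (0.466%) at 3 days, and 2144 (11.8%) without replicate 1. Klf11 gave the largest such difference among the genes named that were called at 3 days, at -1.30 (adjusted p = 0.0227), and Zfp654 differed by 0.51 (adjusted p = 0.0489) and Idi1 by 0.55 (adjusted p = 0.0338).

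**Figure D5:**
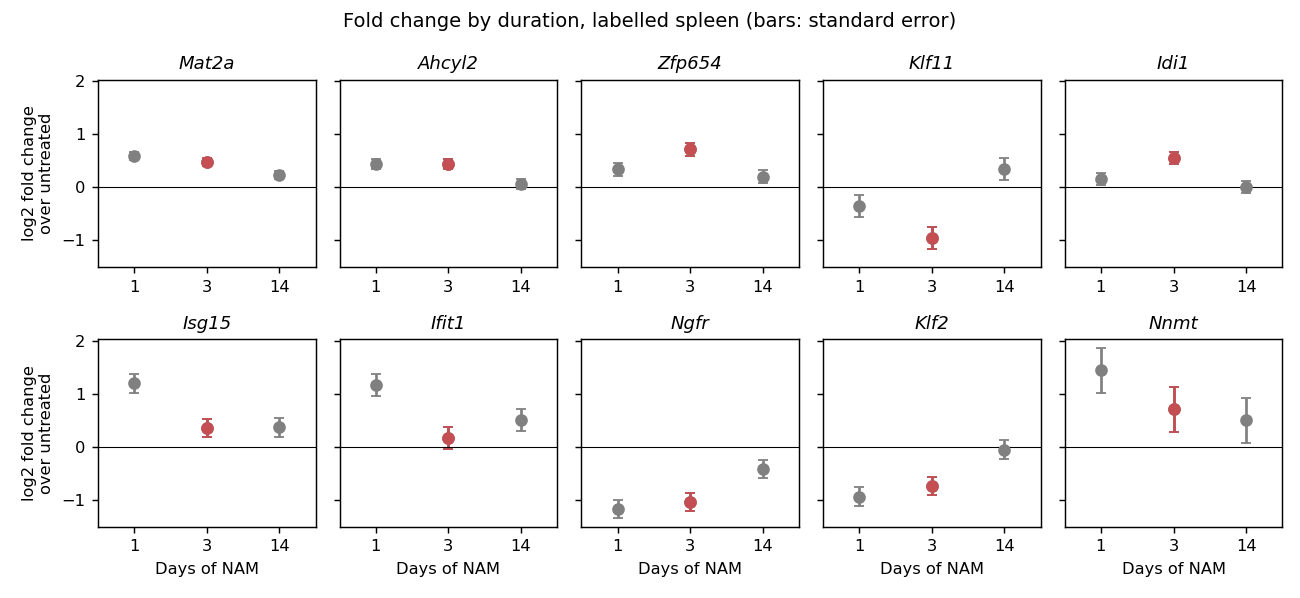
Log2 fold change over untreated after 1, 3 and 14 days of NAM in the libraries labelled spleen for 10 genes, with standard errors (5 libraries per group, shared untreated group). Klf11 lies at -0.96 at 3 days and 0.34 at 14 days, and Ifit1 at 1.17 at 1 day and 0.16 at 3 days.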

How the data were processed

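Total RNA of mouse tissue was made into TruSeq mRNA libraries and sequenced in pairs. The submitters' processing notes name STAR 2.4.0, the mm10 genome, DESeq2, FastQC, Picard and SAMtools, while the counter and its use of strand are not given in the sources used here. The deposited values are a signal, namely read counts that the authors divided by a DESeq2 size factor per library. Whole reads were recovered from their steps, with 100% of the values whole within 0.01. No comparisons of the authors were used.

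Rows with a mean of at least 10 over the 20 libraries labelled spleen were kept, taken as log2(value + 1), which understates changes of low genes, and fitted with limma 3.58.1 (R 4.3.3) over 4 groups, with contrasts taken from that fit and Benjamini-Hochberg adjustment at 0.05. Groups came from the sample titles. Nothing in the labels says that replicates were separate animals, so p-values measure the spread between these samples. Alternatives used edgeR 4.0.16 and DESeq2 1.42.0 on the whole reads, other scalings, filters and pseudocounts, library weights, covariates, a replicate block, thinning to equal depth and each library left out in turn. GC content and length came from 1 GENCODE M21 transcript per gene (GRCm38) and were corrected in each library by splines. Tables were handled in Python 3.11.15 with numpy 2.4.6, scipy 1.17.1 and pandas 2.3.3, and the fits were tested on simulated data.

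Genes were named as the 12 largest calls in each direction with 1 symbol and a mean of at least 100, the 6 smallest p-values, at most 4 called members of each of 58 lists (or the smallest p where none was called), and a fixed panel. No sequence is shown from chromosome 18. A result for 1 gene that the rule names is not reported here. Genes named only for their value without replicate 1, and Mrps5, Mrps2 and Psmb2, were chosen after their values were seen. The members and lists were chosen with earlier results of these data known.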

Additional observations from a re-analysis of the deposited data

Results flagged for a closer look

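In 129 genes named by rule, and in the share of values on the mitochondrial chromosome, 260 groups of 5 libraries were searched for a value far from the other 4, and 33 were found. Chance gives about 1 in 20 independent groups. These groups are not independent, since genes of 1 library share its preparation and many were picked as called. All 33 were in genes, and none in the mitochondrial share. In 23 genes the library set apart was 3 day replicate 1. Its normalised count was the lowest of its group for Rpl22l1 (585), Myeov2 (852), Mat2b (3128), Cox5a (2485), Pgk1 (1164), Rps12 (2719), Mrps14 (872), Mrpl33 (902), Mrpl30 (1937), Psma3 (748), Psmd6 (1522), Psmd5 (933), Srsf3 (5589), Snrpe (886), Prdx6 (4950.0) and Gabarapl2 (1491). It was the highest of its group for Gltscr1 (938), the row over mt-Nd2 (325828), Srrm1 (8002), Snrpa (1740.0), Smarca4 (2657), Tfe3 (1031) and Nfatc1 (4763). For 3 day replicates 3 and 5, Gadl1 had its lowest count of 48.2 in replicate 5, Mdh1 had its highest count of 11563 in replicate 5 and Idi1 had its highest count of 3306 in replicate 3. In the untreated group, Phrf1 had its highest count of 1304 in replicate 1, Prdm1 had its highest count of 200.1 in replicate 4, Ddx60 had its lowest count of 273 in replicate 3, Ifi47 had its lowest count of 3697 in replicate 5, H2-DMb1 had its highest count of 1200.0 in replicate 1, Srrm1 had its highest count of 8488 in replicate 1 and Srsf3 had its highest count of 6370.0 in replicate 3.

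The difference between 3 and 14 days was itself tested with limma, and 192 genes passed. Of the genes named by rule, those higher at 3 days (log2 difference) were Igip (0.64), Zfp654 (0.51), Mob4 (0.36), Crk (0.35), Chka (0.42), Idi1 (0.55), Mrpl1 (0.40), Psma3 (0.53) and Gabarapl2 (0.48). Those lower were Klf11 (-1.30), Synpo (-0.67), Gltscr1 (-0.54), Phrf1 (-0.29), Treml4 (-0.80), Csn2 (-1.96), Snrpa (-0.32), Kdm2a (-0.36) and Tfe3 (-0.35). The difference between 3 days and 1 day passed in 1 gene.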

How the results depend on the processing

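The number of calls depended on the processing. Called genes in all, higher and lower numbered 572, 319 and 253 with no filter, 140, 89 and 51 in a fit of the 2 groups alone, 4722, 2475 and 2247 with library weights, 1723, 888 and 835 with DESeq2, 2299, 1238 and 1061 with an adipocyte covariate, and 2653, 1289 and 1364 with a stromal covariate. A rule of a 1.5-fold change and a p, not adjusted, up to 0.05 gave 620, 298 and 322. With TMM scaling 312 genes were lower. Chosen after seeing the data, the correction for GC content and length gave 97, 40 and 57 (1375 in all without 3 day replicate 1), and that for GC content alone 103, 50 and 53. Leaving out 1 library gave 158 to 2782 calls, 91 to 1482 higher and 67 to 1300 lower. The cause of these shifts was not tested. With replicate number as a block, 489 genes were higher and 511 lower, and 169 (47 and 122) with the GC and length correction too. The numbers did not pair the samples, since correlations of same-numbered libraries were -0.328 to 0.111.

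Over the named genes and alternatives, 2746 values kept their direction and side of the threshold, 757 lost the call, 68 gained it and 21 reversed. The reversals were all in genes not called. Nampt was 0.015 under TMM scaling, 0.0017 under edgeR on whole reads and 0.013 under stromal covariate, and -0.13 to 0.050 with 1 library left out. Ifit1 was -0.087 under library weights, and 0.014 to 0.33 with 1 library left out. Irf7 was -0.17 under library weights, and -0.040 to 0.21 with 1 library left out. Glycam1 was -0.11 under stromal covariate, -0.12 under GC and length correction and -0.12 under replicate block with GC and length correction, and -0.043 to 0.15 with 1 library left out. Depth limits genes of low count, and untreated libraries were the shallower ones.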

Other observations

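Other gene lists are given by their counts, beside 5.55% of all genes called with all libraries and 15.2% without replicate 1. In DNA replication 1 of 30 genes rose and 0 fell (1 and 0 without replicate 1, 3.33% and 3.33% called, median -0.083). Rfc4, a clamp loader subunit, rose by 0.59 (adjusted p = 0.0234), with 0.76 without replicate 1 (adjusted p = 8.54e-05) and 0.43 under the correction (adjusted p = 0.126). In the cell cycle 0 of 25 genes rose and 1 fell (1 and 3 without replicate 1, 4% and 16% called, median -0.16). E2f1, which drives entry into S phase, fell by 0.49 (adjusted p = 0.0261), with -0.50 without replicate 1 (adjusted p = 0.0125) and -0.42 under the correction (adjusted p = 0.111). Among heat shock chaperones 1 of 22 genes rose and 1 fell (4 and 2 without replicate 1, 9.09% and 27.3% called, median 0.087). Dnajb1, a co-chaperone, rose by 0.30 (adjusted p = 0.041), with 0.35 without replicate 1 (adjusted p = 0.00596) and 0.33 under the correction (adjusted p = 0.11). Hsf1, the factor that drives the chaperones, fell by 0.27 (adjusted p = 0.0327), with -0.29 without replicate 1 (adjusted p = 0.0119) and -0.24 under the correction (adjusted p = 0.283). In autophagy and the lysosome 2 of 31 genes rose and 2 fell (3 and 3 without replicate 1, 12.9% and 19.4% called, median -0.003). Gabarapl2, which helps to build autophagosomes, rose by 0.47 (adjusted p = 0.0236), with 0.61 without replicate 1 (adjusted p = 2.28e-05) and 0.35 under the correction (adjusted p = 0.109). Atg12, of the same machinery, rose by 0.19 (adjusted p = 0.0372), with 0.21 without replicate 1 (adjusted p = 0.0126) and 0.19 under the correction (adjusted p = 0.251). Tfe3, a lysosomal transcription factor, fell by 0.39 (adjusted p = 0.0126), with -0.48 without replicate 1 (adjusted p = 5.47e-05) and -0.31 under the correction (adjusted p = 0.11). Ctsa, a lysosomal protease, fell by 0.25 (adjusted p = 0.0482), with -0.25 without replicate 1 (adjusted p = 0.0306) and -0.19 under the correction (adjusted p = 0.397). Among NRF2 genes 1 of 27 genes rose and 0 fell (3 and 1 without replicate 1, 3.7% and 14.8% called, median 0.09). Prdx6, a peroxiredoxin, rose by 0.29 (adjusted p = 0.035), with 0.35 without replicate 1 (adjusted p = 0.00431) and 0.23 under the correction (adjusted p = 0.132).

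Among Sm proteins 1 of 24 genes rose and 1 fell (6 and 1 without replicate 1, 8.33% and 29.2% called, median 0.09). Snrpe, an Sm core protein, rose by 0.65 (adjusted p = 0.0497), with 0.90 without replicate 1 (adjusted p = 5.85e-05) and 0.43 under the correction (adjusted p = 0.196). Snrpa, of the U1 particle, fell by 0.34 (adjusted p = 0.0139), with -0.39 without replicate 1 (adjusted p = 0.00128) and -0.36 under the correction (adjusted p = 0.0742). In TGF-beta and matrix genes 0 of 31 genes rose and 1 fell (0 and 3 without replicate 1, 3.23% and 9.68% called, median -0.15). Smad3, a TGF-beta signal transducer, fell by 0.41 (adjusted p = 0.0199), with -0.49 without replicate 1 (adjusted p = 8.10e-04) and -0.31 under the correction (adjusted p = 0.125). In germinal centre B cells 1 of 12 genes rose and 0 fell (1 and 3 without replicate 1, 8.33% and 33.3% called, median -0.047), and among p53 targets 1 of 20 genes rose and 0 fell (2 and 0 without replicate 1, 5% and 10% called, median 0.12), Fas being the call in both. Among replication-dependent histones 1 of 15 genes rose and 0 fell (2 and 0 without replicate 1, 6.67% and 13.3% called, median 0.23). In the 10 fits that each omitted 1 library, Tfe3 passed in 10 of 10 fits. The call was kept by Rfc4 in 5 of 10 fits (largest adjusted p 0.0794, at 0.54, without 3 day replicate 5), E2f1 in 4 of 10 fits (largest adjusted p 0.0881, at -0.45, without 3 day replicate 3), Dnajb1 in 2 of 10 fits (largest adjusted p 0.115, at 0.26, without 3 day replicate 2), Hsf1 in 3 of 10 fits (largest adjusted p 0.106, at -0.25, without 3 day replicate 3), Gabarapl2 in 3 of 10 fits (largest adjusted p 0.0836, at 0.42, without 3 day replicate 3), Atg12 in 3 of 10 fits (largest adjusted p 0.116, at 0.18, without 3 day replicate 5), Ctsa in 1 of 10 fits (largest adjusted p 0.139, at -0.22, without 3 day replicate 5), Prdx6 in 2 of 10 fits (largest adjusted p 0.11, at 0.27, without 3 day replicate 3), Snrpe in 2 of 10 fits (largest adjusted p 0.133, at 0.61, without 3 day replicate 5), Snrpa in 8 of 10 fits (largest adjusted p 0.0553, at -0.32, without 3 day replicate 5) and Smad3 in 6 of 10 fits (largest adjusted p 0.0707, at -0.33, without 3 day replicate 3).

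Other lists held no call with limma and all libraries. Their counts at an unadjusted p under 0.05 stand beside 22% of all genes. These were MHC class I (18 genes, 2 with an unadjusted p under 0.05, median 0.032), MHC class II (12 genes, 3 with an unadjusted p under 0.05, median -0.14), glucocorticoid-responsive genes (17 genes, 1 with an unadjusted p under 0.05, median 0.0021), endoplasmic reticulum stress (23 genes, 7 with an unadjusted p under 0.05, median -0.041), ribosome biogenesis (28 genes, 6 with an unadjusted p under 0.05, median 0.019) and GIMAP GTPases (8 genes, 0 with an unadjusted p under 0.05, median -0.078). Without replicate 1, endoplasmic reticulum stress had 2 higher and 3 lower calls (21.7%) and ribosome biogenesis 5 and 1 (21.4%), against 15.2% of all genes, while MHC class I had 1 higher, glucocorticoid-responsive genes 1 lower, and MHC class II and GIMAP GTPases 0. DESeq2 called 2 falls in MHC class II and 1 rise and 1 fall in each of endoplasmic reticulum stress and ribosome biogenesis. Markers of other tissues held no call either. These were adipocytes (18 genes, 0 with an unadjusted p under 0.05, median 0.31), neutrophils (14 genes, 3 with an unadjusted p under 0.05, median 0.40), erythroid cells (9 genes, 0 with an unadjusted p under 0.05, median 0.012), platelets and mast cells (11 genes, 1 with an unadjusted p under 0.05, median -0.14), skeletal muscle (7 genes, 0 with an unadjusted p under 0.05, median -0.10), epithelium (12 genes, 1 with an unadjusted p under 0.05, median 0.18) and exocrine pancreas (2 genes, 0 with an unadjusted p under 0.05, median 0.68). The summed level of adipocyte markers was 72378 to 363501 untreated and 102358 to 444035 at 3 days, so the groups overlapped. For neutrophils, edgeR and DESeq2 each called 1 fall, and for epithelium edgeR called 1 fall. Without replicate 1, limma called 1 epithelial gene as lower and 0 genes of the other 6 lists.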
